A study of Mus musculus with 6 samples.

Results

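Histone genes were followed in mouse blastocysts that were growing or dormant. Members were the probesets of the array annotated with exactly 1 gene whose symbol, or an older symbol of the same gene, is that of a histone H1, H2A, H2B, H3 or H4 gene. Of 41345 probesets, 46 met this rule and stood for 43 of the 22180 genes that had a probeset annotated to them alone. The annotated symbol chose 36 of these probesets (34 genes), and an older symbol alone chose the other 10 (9 genes), among them the macroH2A genes. By their names, 25 members were replication-dependent histone genes (4 of H1, 6 of H2A, 7 of H2B and 8 of H4), 7 were replacement variants, 8 were germ cell histones and 3 were pseudogenes. No H3 gene and no H3.3 gene had a probeset of its own here, and these genes were read only through probesets shared by several genes.

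The data came from Mouse Gene ST arrays, 6 in all and 2 to a group, with 10 blastocysts from let7g-transgenic mice behind every array. D4-act-7g held activated blastocysts of day 4, Dor-7g held blastocysts dormant in vivo on day 7, and DOX-7g held blastocysts made dormant in vitro on day 7 by let-7 induced with DOX. All 3 groups, the controls included, carried the let7g transgene, and the promoter that drives it, the DOX dose and the culture of DOX-7g are not given in the sources used here. Day and dormancy both separate Dor-7g from D4-act-7g; for DOX-7g, culture, DOX and let-7 induction are added to these, and such factors cannot be told apart. The labels do not say whether arrays within a group were made from different mice, so p-values cover only array-to-array spread, which may be technical, and the small number of arrays limits all precision.

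Histones package DNA into nucleosomes: H2A, H2B, H3 and H4 form the core, and H1 binds the linker DNA between cores. Replication-dependent histone genes lie in clusters, have no introns and are transcribed chiefly in S phase, and their mRNAs end in a stem-loop in place of a poly(A) tail. Variant histones such as H2A.Z, H2A.X, macroH2A and H3.3 are made from single genes outside S phase as well, and replace the canonical proteins at particular sites. In diapause the blastocyst stops dividing before implantation and stays viable. The labels do not say how the RNA was primed for labelling, so whether mRNAs without a poly(A) tail were read in full is not known.

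The promoters of the replication-dependent members carry short motifs that recur within a family. RefSeq (GRCm38.p6) gave a promoter window for 37 of the 43 members, 22 of them on chromosome 13, where the larger cluster lies, and 4 on chromosome 3. The 250 bases before each start were searched on both strands for the CCAAT box, the TATA box TATAAA, the octamer ATTTGCAT and the hexamer GGTCCG of histone H4 promoters. CCAAT was found in 70.3% of member windows and in 33.8% of all 32851 windows, and TATAAA in 35.1% and 12.4%. ATTTGCAT was found in 24.3% of member windows and in 1.6% of all windows, and it lay in 4 of 6 replication-dependent H2B windows and 3 of 6 H2A windows. GGTCCG was found in 21.6% of member windows and in 6.7% of all windows. It lay in 4 of 7 replication-dependent H4 windows, but also in 3 of 6 variant windows and 1 of 6 replication-dependent H2B windows. A match is a description of these letters and not of a bound factor.

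The 6 stretches printed here are those of the genes whose levels are described most closely: H2bc12 and H2bc9, whose Dor-7g levels lay furthest below D4-act-7g, H2bc3 and H2bc18, other H2B genes that did not share this, and the H4 genes H4c17 and H4c12. Each runs 5′ to 3′ toward the gene's start. Capitals mark the 4 motifs on either strand, so that a CCAAT box of the other strand reads ATTGG.
H2bc12, chr13:22035644-22035820, plus strand: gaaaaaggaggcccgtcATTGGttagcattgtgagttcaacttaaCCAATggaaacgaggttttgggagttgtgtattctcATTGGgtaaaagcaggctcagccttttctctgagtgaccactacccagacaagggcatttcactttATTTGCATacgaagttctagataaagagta
H2bc9, chr13:23543445-23543594, minus strand: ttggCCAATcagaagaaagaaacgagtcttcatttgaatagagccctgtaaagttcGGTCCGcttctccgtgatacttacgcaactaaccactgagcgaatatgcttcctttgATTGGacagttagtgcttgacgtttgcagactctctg
H2bc3, chr13:23746584-23746733, plus strand: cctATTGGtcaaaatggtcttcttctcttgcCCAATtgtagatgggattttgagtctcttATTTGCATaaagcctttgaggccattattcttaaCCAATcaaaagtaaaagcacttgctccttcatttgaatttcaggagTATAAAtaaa
H2bc18, chr3:96269550-96269699, plus strand: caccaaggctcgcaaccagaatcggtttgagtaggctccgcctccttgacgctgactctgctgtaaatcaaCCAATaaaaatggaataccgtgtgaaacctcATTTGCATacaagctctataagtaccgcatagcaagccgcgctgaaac
H4c17, chr13:21811596-21811745, plus strand: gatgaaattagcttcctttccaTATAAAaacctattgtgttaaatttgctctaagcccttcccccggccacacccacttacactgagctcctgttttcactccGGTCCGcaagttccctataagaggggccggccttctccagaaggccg
H4c12, chr13:21750554-21750703, minus strand: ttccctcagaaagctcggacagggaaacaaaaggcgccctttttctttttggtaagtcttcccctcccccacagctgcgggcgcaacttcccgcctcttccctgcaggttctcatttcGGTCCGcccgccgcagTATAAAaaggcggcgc
The H2bc12 stretch is the 177 bases between its start and that of H2ac12, which is transcribed the other way, and it holds 3 CCAAT boxes and 1 octamer. H2bc3 and H2bc18 hold the octamer too. The H2bc9 stretch holds 2 CCAAT boxes and a GGTCCG but no ATTTGCAT, and both H4 stretches hold 1 TATAAA and 1 GGTCCG with no CCAAT box.

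The arrays differed in how closely they repeated. Dor-7g replicate 1 stood apart, with a median log2 level of 4.87 over all probesets against 4.62 to 4.67 on the other 5 arrays, and Pearson's r across probesets of 0.899 to 0.919 with them. The arrays of a group differed by a median of 0.33, 0.49 and 0.42 log2 units over the histone genes in D4-act-7g, Dor-7g and DOX-7g, against 0.18, 0.34 and 0.20 over all probesets. The largest such gaps were those of H2bc1 in D4-act-7g (3.50), H2ac20 in Dor-7g (4.31) and H2bc9 in DOX-7g (2.25). Of 12 blastocyst lineage markers such as Cdx2 and Pou5f1, 10 or 11 lay at or above the median of every array. A filter kept genes at or above the array median on at least 2 of 6 arrays, which left 14020 genes and 33 of the 43 members (18 replication-dependent, 7 variants, 6 germ cell, 2 pseudogenes). Levels below the array median are called dim here, and a difference from a dim level may be compressed.

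**Figure D1:**
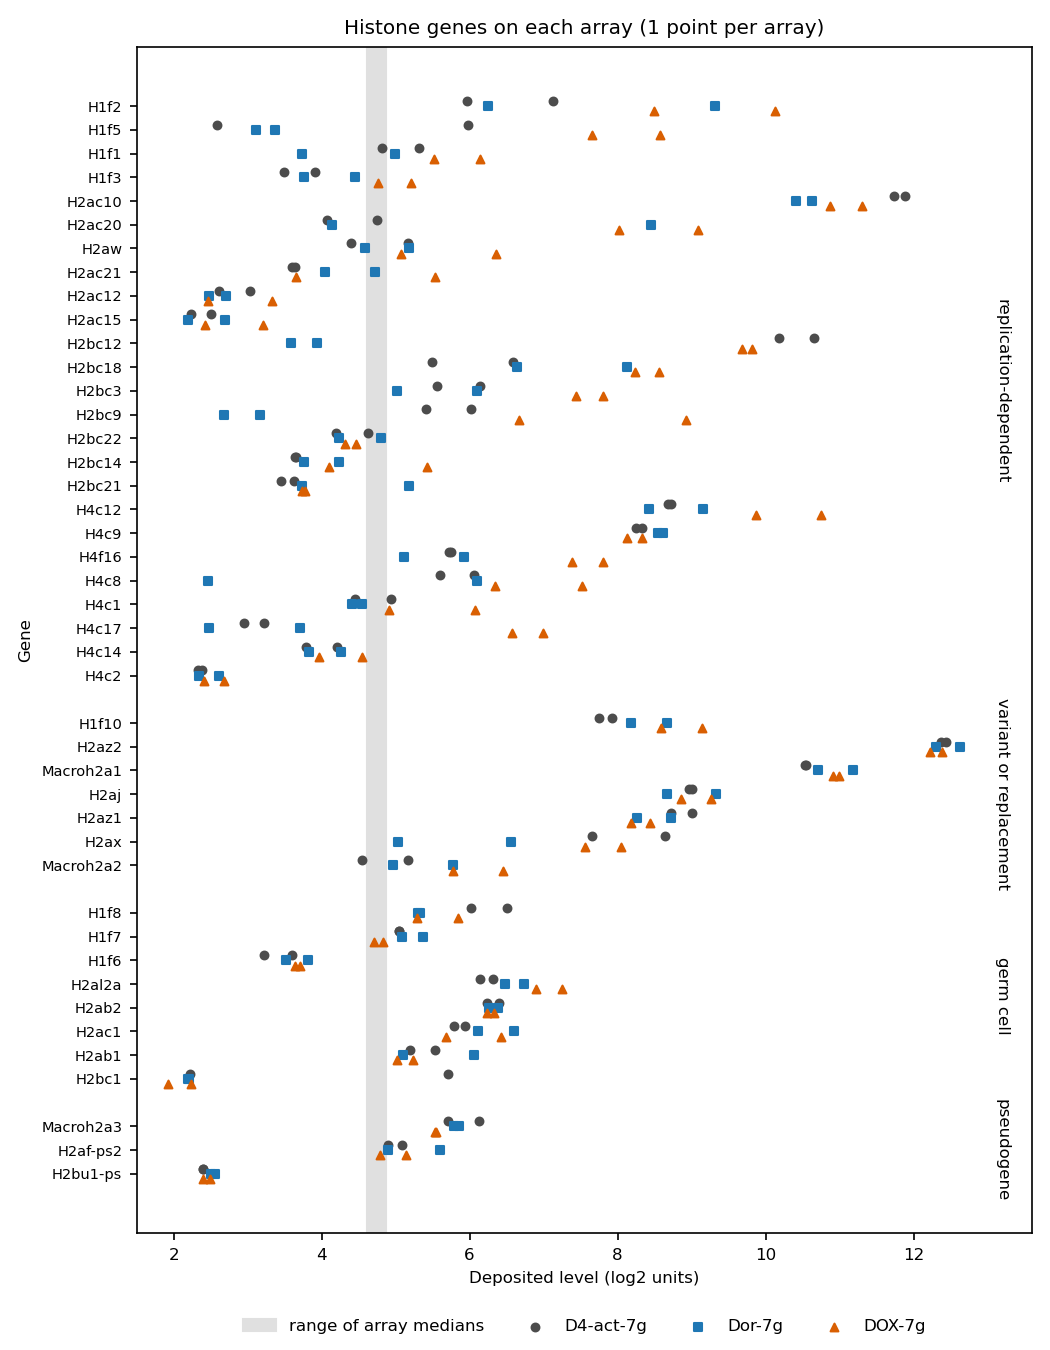
Deposited log2 level (x axis) of each of the 43 histone genes (y axis, grouped by class) on each of the 6 arrays, 1 point per array; the grey band is the range of array medians, 4.62 to 4.87. H2bc12 lies at 3.59 and 3.94 in Dor-7g and between 9.69 and 10.66 on the other 4 arrays, while H2az2 lies between 12.22 and 12.63 on all 6.

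In blastocysts dormant in vivo, H2bc12, which encodes an H2B protein, was the single member past the threshold. It stood at 10.18 and 10.66 log2 units on D4-act-7g replicates 1 and 2, at 3.94 and 3.59 on Dor-7g replicates 1 and 2, and at 9.69 and 9.82 on DOX-7g replicates 1 and 2. Both Dor-7g arrays were dim, and no array of another group came near them. H2bc12 fell by 6.66 ± 0.24 log2 units (SE; limma, adjusted p = 0.000976) in Dor-7g, and the call held in 6 of 6 fits that left out 1 array each (adjusted p = 0.00188 to 0.0214). The levels had been normalized, so this fall was relative to other genes on the same arrays. The median difference in Dor-7g was 0.10 over all 22180 genes with no filter. H2az2, a histone variant gene, stood at 12.37 and 12.43 on the D4-act-7g arrays and at 12.30 and 12.63 on those of Dor-7g. Cell number and RNA per cell were not measured in these pools, and the cause of the fall was not tested.

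H2bc9, another H2B gene of the same cluster, had the next largest difference in that direction. It stood at 6.02 and 5.41 on the D4-act-7g arrays and at 2.68 and 3.17 on the Dor-7g arrays, so the groups did not overlap, and both Dor-7g arrays were dim. The difference was -2.79 ± 0.72 (SE; limma, adjusted p = 0.175) and did not pass. H2ac10, an H2A gene, was lower as well, at 11.73 and 11.88 against 10.63 and 10.41. Its difference of -1.29 ± 0.22 did not pass (SE; limma, adjusted p = 0.0774), but it did once each array was centred on its median, which brought the members called to 2.

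The other replication-dependent genes lay on both sides of 0 in Dor-7g. Of the 33 members tested 1 was called lower and none higher, where 0.742% of all genes tested were called lower and 0.243% higher. At an unadjusted p under 0.05 limma counted 3 lower and none higher among the 25 replication-dependent genes with no filter (12%), near the 11.7% of all genes that passed in either direction. The 25 genes had a median difference of 0.07, against 0.10 over all 22180 genes with no filter. Of those 22180 genes 14062 lay above 0 and 8117 below, and of the 25 genes 14 and 11. Their arrays did not overlap for 5 genes higher (20.0%) and 3 lower (12%), where 27.0% and 15.9% of all genes did so. The 44 probesets annotated with several genes, at least 1 of them a histone gene, lay lower, with a median of -0.34. Their arrays did not overlap for 8 higher and 20 lower. No share over all probesets was computed for this count, and the 27.0% and 15.9% are of genes with a probeset of their own. Family by family, the shared probesets had medians of -0.90 for H2A, -1.74 for H2B, -1.57 for H3.1, -0.18 for H3.2, 0.02 for H3.3 and 0.06 for H4. The counts turned on single arrays, as did those of all genes. The median of the 25 genes was -0.01 without Dor-7g replicate 1 and -0.08 without Dor-7g replicate 2.

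H2ac20, H4c8 and H1f2 show how far the Dor-7g arrays parted. H2ac20 was at 4.74 and 4.07 on the D4-act-7g arrays and at 4.14 and 8.45 on those of Dor-7g. H4c8 was at 6.06 and 5.59 on the first and at 2.47 and 6.10 on the second. H1f2, a linker histone gene, was at 7.13 and 5.97 against 6.25 and 9.31. In each of these 3 genes Dor-7g replicate 2 lay above replicate 1 by more than 3 log2 units, and the groups overlapped.

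The genes of the smaller cluster were set against those of the larger after their values were seen. The 5 replication-dependent members on chromosome 3 (H2ac20, H2ac21, H2bc18, H2bc21 and H4c14) all lay above 0 in Dor-7g, with differences of 0.05 to 1.89 and a median of 0.92. Of the 18 on chromosome 13, 8 lay above 0 and 10 below, with a median of -0.11. Of all 22180 genes with no filter 14062 lay above 0 and 8117 below. H2bc18 stood at 6.59 and 5.49 on the D4-act-7g arrays, 8.12 and 6.64 on those of Dor-7g, and 8.23 and 8.56 in DOX-7g. Its groups did not overlap, and its differences of 1.34 ± 0.57 in Dor-7g and 2.36 ± 0.57 in DOX-7g did not pass (SE; limma, adjusted p = 0.373 and 0.19). H2bc21 and H4c14 were dim on at least 5 of 6 arrays.

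In blastocysts made dormant in vitro, most replication-dependent genes with a probeset of their own stood above their day 4 level. The 44 shared probesets did not do so as a whole, but they include 7 of the H3.3 variant and 1 of germ cell H2A. The median difference from D4-act-7g was 0.98 over all 25 replication-dependent genes, against -0.03 over all 22180 genes with no filter. Array by array it came to 1.07 and 0.52 in DOX-7g, against -0.08 and -0.01 on the Dor-7g arrays. In DOX-7g 21 genes lay above 0 and 4 below, where 10001 and 12179 of all 22180 genes did so. Both DOX-7g arrays lay above both D4-act-7g arrays for 16 of the 25 (64.0%) and below them for 2 (8.0%), where 19.0% and 25.8% of all genes did so. At an unadjusted p under 0.05 limma counted 11 of the 25 higher and 2 lower with no filter, and 8.57% of all genes passed in either direction. Over the 44 shared probesets the median difference was 0.07. Their arrays did not overlap for 12 higher and 7 lower, a count for which no share over all probesets was computed.

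**Figure D2:**
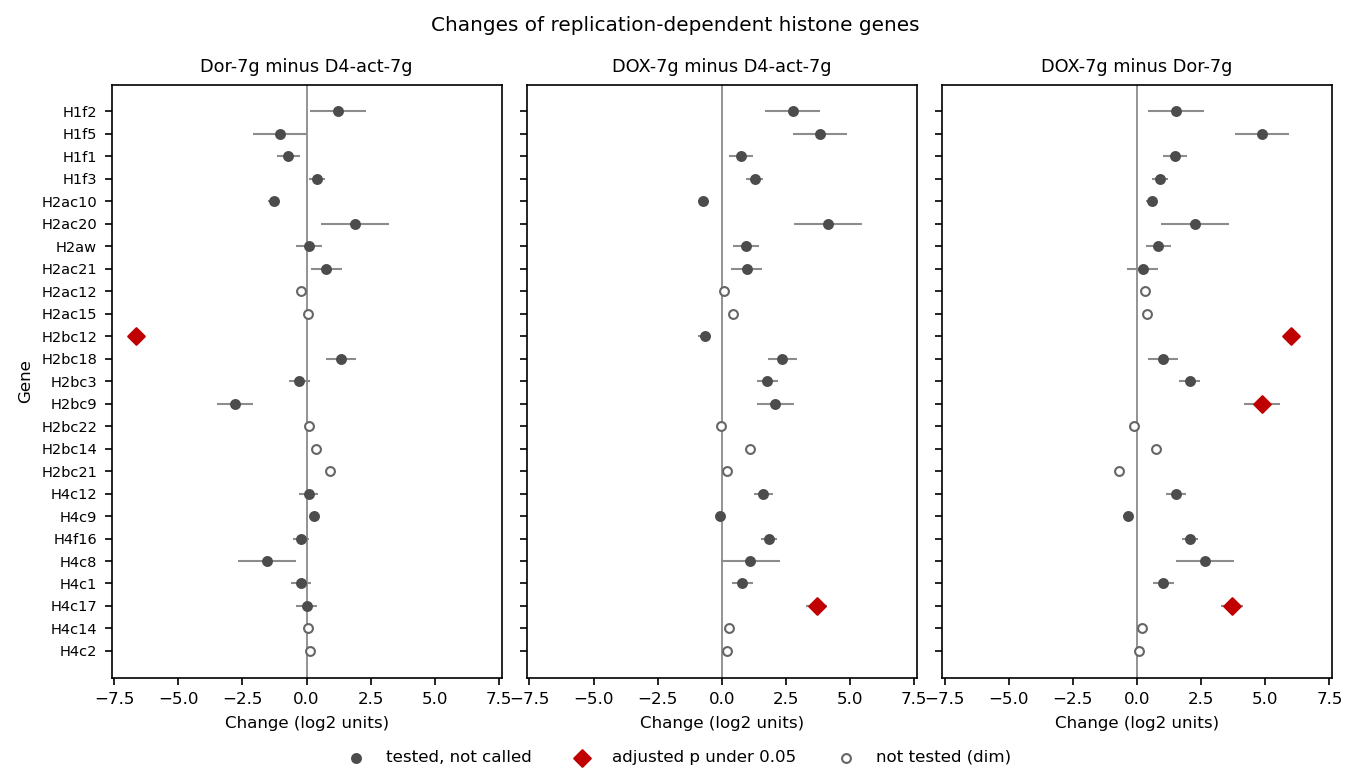
Difference of group means in log2 units (x axis) for each of the 25 replication-dependent histone genes (y axis) in the 3 comparisons; bars are limma's SE, red diamonds are genes with an adjusted p under 0.05, and open circles are genes that the filter on dim levels left untested. In DOX-7g minus D4-act-7g 21 of the 25 points lie to the right of 0, and in Dor-7g minus D4-act-7g 14 do.

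H4c17, an H4 gene, was the single member called in that comparison, where 0.706% of all genes tested were called higher and 0.25% lower. It stood at 2.95 and 3.23 on the D4-act-7g arrays, 3.71 and 2.47 on those of Dor-7g, and 6.99 and 6.58 in DOX-7g. It was dim on all 4 arrays of the other groups, and both DOX-7g arrays lay more than 2 log2 units above each of them. H4c17 rose by 3.70 ± 0.42 (SE; limma, adjusted p = 0.0259) against D4-act-7g. It passed the filter on dim levels only through the 2 DOX-7g arrays, the group where it was high, so its place among the genes tested was not independent of this difference; with no filter the adjusted p was 0.0264 (limma). Leaving out D4-act-7g replicate 1 or 2 or DOX-7g replicate 1 or 2 ended the call (adjusted p = 0.189, 0.156, 0.149 and 0.128), and leaving out either Dor-7g array brought the members called to 3, with H2ac20 and H4f16. H4f16, an H4 gene outside the clusters, stood at 5.72 and 5.75, 5.11 and 5.93, and 7.80 and 7.38 in the same order of groups, a difference from D4-act-7g of 1.86 ± 0.31 (SE; limma, adjusted p = 0.0814); its other probeset was dim on 5 of 6 arrays.

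By family, the median differences of these 25 genes from D4-act-7g were 2.02 for the 4 H1 genes, 0.69 for the 6 H2A genes, 1.11 for the 7 H2B genes and 0.96 for the 8 H4 genes, with 1 H4 gene called and none of the other 3 families. The shared probesets had medians of -0.06 for H2A, 0.65 for H2B, 1.06 for H3.1, -0.07 for H3.2, -0.02 for H3.3 and 0.15 for H4. Those of H2A ranged from -0.316 to 1.585, with 2 higher and 2 lower without overlap, so their median near 0 shows no direction. The H1 genes H1f1, H1f2, H1f3 and H1f5 were each higher on both DOX-7g arrays than on both D4-act-7g arrays. H1f5 stood at 5.98 and 2.59 on the D4-act-7g arrays, 3.37 and 3.11 on those of Dor-7g, and 8.57 and 7.65 in DOX-7g. Its difference from D4-act-7g was 3.83 ± 1.05 (SE; limma, adjusted p = 0.241), with a gap of over 3 log2 units between the D4-act-7g arrays.

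H4c12 and H2bc3 repeated more closely. H4c12 stood at 8.68 and 8.72 on the D4-act-7g arrays, 9.15 and 8.42 on those of Dor-7g, and 10.74 and 9.87 in DOX-7g. H2bc3 stood at 6.14 and 5.56, 5.02 and 6.10, and 7.80 and 7.44 in the same order. In both genes the DOX-7g arrays lay above all 4 others, and the differences from D4-act-7g, 1.61 ± 0.37 and 1.78 ± 0.41, did not pass (SE; limma, adjusted p = 0.174 and 0.172). H2ac10 and H2bc12 were the 2 genes whose DOX-7g arrays both lay below D4-act-7g, by 0.72 ± 0.22 and 0.67 ± 0.24 (SE; limma, adjusted p = 0.3 and 0.389). H4c9 lay between 8.12 and 8.62 on all 6 arrays.

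Set directly against Dor-7g, DOX-7g had 3 members called higher and none lower, H2bc12, H4c17 and H2bc9, where 1.04% of all genes tested were called higher and 0.121% lower. H2bc12 was higher by 5.99 ± 0.24 (SE; limma, adjusted p = 0.000337), and this call held in 6 of 6 fits that left out 1 array (adjusted p = 0.00146 to 0.00782). H4c17, which the DOX-7g arrays alone brought past the filter, was higher by 3.70 ± 0.42 (SE; limma, adjusted p = 0.0195, and 0.0204 with no filter), a call lost without either D4-act-7g array (adjusted p = 0.0678 each) or without DOX-7g replicate 1 or 2 (0.135 and 0.102). H2bc9 stood at 6.67 and 8.92 in DOX-7g and was higher by 4.87 ± 0.72 (SE; limma, adjusted p = 0.0497). That p lay at the threshold, and the call held in 2 of 6 fits that left out 1 array, those without Dor-7g replicate 2 and DOX-7g replicate 1 (adjusted p = 0.0105 to 0.127 over the 6).

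Most of the class lay in that direction. Of the 25 replication-dependent genes 22 lay above 0 and 3 below, where 7267 and 14913 of all 22180 genes did so. The median of the 25 was 1.02, against -0.12 over all genes with no filter. Both DOX-7g arrays lay above both Dor-7g arrays for 13 (52.0%) and below them for 1 (4.0%), where 11.7% and 28.2% of all genes did so. The 44 shared probesets had a median of 0.55, with 20 higher and 5 lower without overlap, and again no share over all probesets was computed. The members called turned on single arrays here too, and the median of the 25 genes was 0.55 without Dor-7g replicate 2. This comparison and that of DOX-7g with D4-act-7g share the DOX-7g arrays and are not independent.

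Most H2A, H2B, H3 and H4 genes of the clusters are so alike that a probeset is annotated with several of them. The array held 47 probesets annotated with several genes, at least 1 of them a histone gene. Of these 44 had values of their own, and they add the H3 genes. A fit over all 22564 probesets that passed the filter, chosen after the data were seen, tested 35 of the 44. In Dor-7g against D4-act-7g it called 3 lower and none higher, where 0.558% and 0.284% of all probesets tested were called. At an unadjusted p under 0.05 it counted 12 lower and 2 higher of the 35 (40.0%), against 13.5% of all probesets. The genes listed for a probeset cannot be told apart, and probesets listed with the same genes did not always behave alike.

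The 3 probesets called lower in Dor-7g were 1 of H3.1, 1 of H2A and 1 of H2B genes. The H3.1 probeset, shared by 4 H3c genes, stood at 9.18 and 8.29 on the D4-act-7g arrays, 2.75 and 3.55 on those of Dor-7g, and 9.90 and 10.07 in DOX-7g. It fell by 5.58 ± 0.41 log2 units in Dor-7g (SE; limma, adjusted p = 0.02). The H2A probeset, shared by 10 H2ac genes, stood at 10.84 and 11.40, 3.22 and 5.70, and 11.07 and 11.06, and fell by 6.66 ± 0.80 (SE; limma, adjusted p = 0.0447). The H2B probeset, shared by 3 H2bc genes, stood at 6.68 and 7.94, 3.16 and 2.88, and 6.98 and 7.73, and fell by 4.29 ± 0.49 (SE; limma, adjusted p = 0.0394). Other probesets listed with the same genes differed less in Dor-7g, and none of them was called lower. They differed by -0.86, -0.31 and -2.28 for H3.1, by -4.21 to 0.02 for H2A and by -2.23 for H2B. That other H2B probeset stood at 4.18 and 10.24 on the Dor-7g arrays. As with H2bc12, the Dor-7g arrays of the 3 called probesets lay far below those of both other groups. These calls were lost without either D4-act-7g array or either DOX-7g array, except that of the H2B probeset, which was lost in every such fit but the one without Dor-7g replicate 2 (adjusted p up to 0.133, 0.257 and 0.149 for H3.1, H2A and H2B).

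Against Dor-7g, DOX-7g had 5 of these probesets called higher and none lower, where 1.14% and 0.0842% of all probesets tested were called. At an unadjusted p under 0.05 there were 14 higher and none lower of 35 (40.0%), against 11.6% of all probesets. The 5 were the same 3, a further H2A probeset shared by 10 genes and an H2B probeset shared by 12. That H2A probeset stood at 6.04 and 7.67, 3.09 and 2.20, and 8.60 and 8.28 in D4-act-7g, Dor-7g and DOX-7g, and was higher by 5.79 ± 0.60 (SE; limma, adjusted p = 0.022). The H2B probeset stood at 5.84 and 6.04, 5.29 and 5.31, and 6.66 and 6.58, and was higher by 1.33 ± 0.18 (SE; limma, adjusted p = 0.0455), the smallest of the 5 differences. The H3.1 probeset was higher by 6.83 ± 0.41 (SE; limma, adjusted p = 0.00309) and held in 6 of 6 fits that left out 1 array (adjusted p up to 0.0401), whereas the other 4 were each lost without at least 3 arrays, DOX-7g replicates 1 and 2 among them. Against D4-act-7g, DOX-7g had none called by limma, where 0.882% of all probesets tested were called higher and 0.213% lower, and at an unadjusted p under 0.05 it had 7 higher and 1 lower of 35 (22.9%), against 10.1% of all probesets. A probeset shared by H2ac18, H2ac19 and H2ac20, of the cluster on chromosome 3, went the other way in Dor-7g: it stood at 10.71 and 10.45 on the D4-act-7g arrays, 11.49 and 12.43 on those of Dor-7g, and 12.59 and 11.72 in DOX-7g.

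The probesets of H3.3, the variant H3 made outside S phase, spread little between arrays, with 1 exception. Of 7, 2 stood between 12.79 and 12.88 on all 6 arrays. One further H3.3 probeset, annotated with H3f3a and Gm12657, stood at 7.25 on Dor-7g replicate 1 and between 11.10 and 11.67 on the other 5 arrays. None of the 7 was called in any comparison. Of 8 H3.2 probesets 4 passed the filter, and none was called. The H3.2 probeset with the largest difference stood at 8.52 and 7.41 on the D4-act-7g arrays, 3.34 and 3.65 on those of Dor-7g, and 5.56 and 3.87 in DOX-7g.

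**Figure D3:**
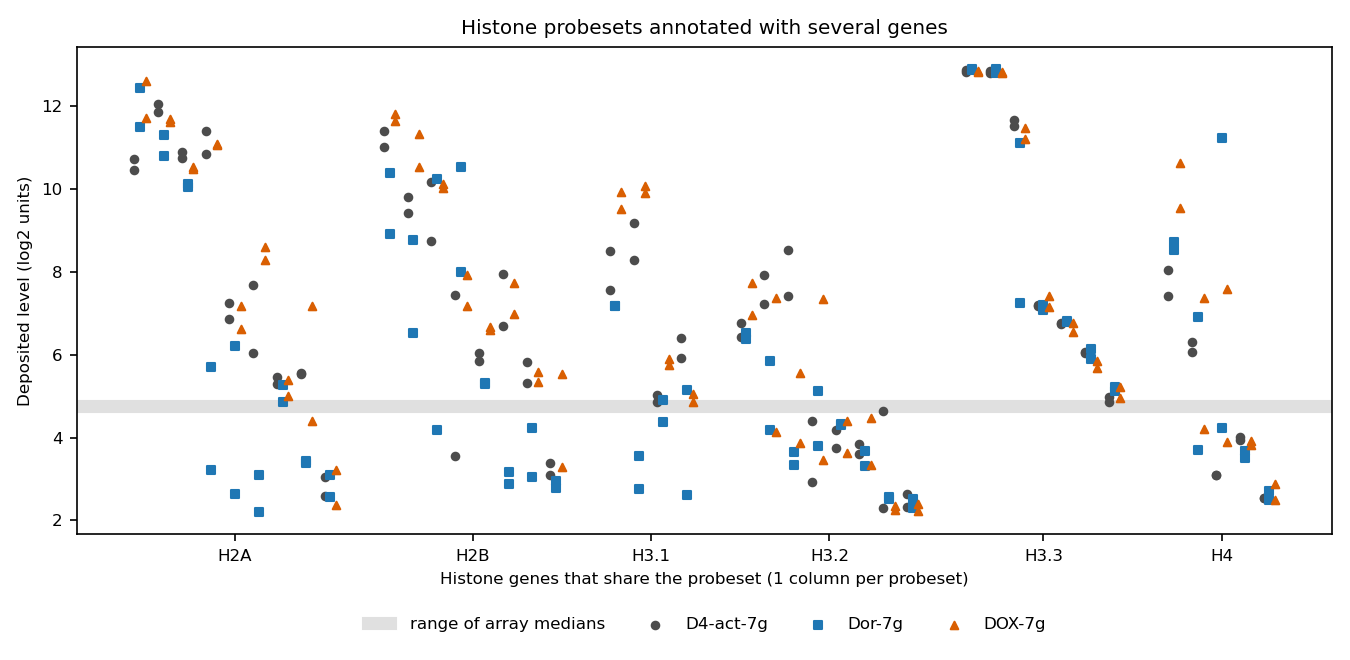
Deposited log2 level (y axis) of probesets annotated with several genes, at least 1 of them a histone gene. There is 1 column per probeset, grouped by family (x axis), and 1 point per array. Probesets with identical values are drawn once and the grey band is the range of array medians. In the H2A, H2B and H3.1 columns several pairs of Dor-7g points lie far below the others, as at 2.75 and 3.55 for one H3.1 probeset, while 2 H3.3 columns stay between 12.79 and 12.88.

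None of the 7 replacement variants with a probeset of their own passed in any comparison (limma), and at an unadjusted p under 0.05 with no filter 1 was lower in Dor-7g and 2 were higher and 1 lower in DOX-7g, against D4-act-7g, and 1 was higher in DOX-7g against Dor-7g. Of all genes with no filter 11.7%, 8.57% and 10.1% passed that p in the 3 comparisons, and the variants' shares were 14.3%, 42.9% and 14.3%. Their median difference was 0.07 in Dor-7g and 0.08 in DOX-7g. H2az2, which encodes an H2A.Z protein, stood between 12.22 and 12.63 on all 6 arrays. H2az1, the other H2A.Z gene, stood at 8.72 and 9.0 on the D4-act-7g arrays, 8.71 and 8.26 on those of Dor-7g, and 8.43 and 8.17 in DOX-7g. Macroh2a1, a variant with a large added domain, stood at 10.53 and 10.55, 11.18 and 10.70, and 10.91 and 10.995, so both dormant groups lay above D4-act-7g, by 0.40 ± 0.21 and 0.42 ± 0.21 (SE; limma, adjusted p = 0.453 and 0.587).

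Macroh2a2, H1f10 and H2aj complete the replacement group beside H2ax. Macroh2a2 was higher in DOX-7g by 1.26 ± 0.39 (SE; limma, adjusted p = 0.31) and its levels lay near the array median. H1f10, a linker histone made through the cell cycle, stood at 7.75 and 7.93, 8.67 and 8.18, and 9.13 and 8.58, with no overlap between D4-act-7g and either dormant group. Its differences of 0.58 ± 0.27 and 1.02 ± 0.27 did not pass (SE; limma, adjusted p = 0.407 and 0.234). H2aj stood between 8.66 and 9.33 on all 6 arrays.

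H2ax, whose product is phosphorylated at DNA breaks and whose gene gives both a stem-loop and a poly(A) mRNA, had the largest difference among the variants. It stood at 7.66 and 8.63 on the D4-act-7g arrays, 5.03 and 6.56 on those of Dor-7g, and 7.55 and 8.05 in DOX-7g. Both Dor-7g arrays lay below the other 4, and the difference from D4-act-7g was -2.35 ± 0.57 (SE; limma, adjusted p = 0.161). That difference was -1.585 without Dor-7g replicate 1 and -3.113 without Dor-7g replicate 2.

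The germ cell histones showed no call in any comparison (limma; at an unadjusted p under 0.05 with no filter, 1 of 8 was lower in Dor-7g and 1 higher and 1 lower in DOX-7g, against D4-act-7g, and 1 was lower in DOX-7g against Dor-7g). These shares of 12.5%, 25.0% and 12.5% stood beside 11.7%, 8.57% and 10.1% of all genes. H1f8, the linker histone of the oocyte and early embryo, stood at 6.02 and 6.50 on the D4-act-7g arrays, 5.31 and 5.33 on those of Dor-7g, and 5.28 and 5.84 in DOX-7g. Both dormant groups lay below D4-act-7g without overlap, by 0.94 ± 0.27 and 0.70 ± 0.27 (SE; limma, adjusted p = 0.212 and 0.431). H2bc1, a testis histone gene, stood at 5.71 on D4-act-7g replicate 1 and between 1.93 and 2.24 on the other 5 arrays. H2al2a was highest in DOX-7g, at 6.89 and 7.24 against 6.14 and 6.31 in D4-act-7g. H1f6, H1f7, H2ab1, H2ab2 and H2ac1 had differences of at most 0.49 in size in every comparison, and the pseudogenes H2af-ps2, H2bu1-ps and Macroh2a3 of at most 0.37.

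The remaining replication-dependent members had low levels. H2ac12, H2ac15, H2bc14, H2bc22 and H4c2 were not tested, being dim on at least 5 of 6 arrays. H1f1, H1f3, H2aw, H2ac21 and H4c1 passed the filter with levels near the array median. H1f3 stood at 3.50 and 3.91 on the D4-act-7g arrays, 4.44 and 3.76 on those of Dor-7g, and 4.75 and 5.205 in DOX-7g. It reached the array median on the DOX-7g arrays alone and was tested only through them.

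Other genes of the histone pathway were read from lists. Of 32 genes for histone mRNA transcription and 3′ processing 29 had a probeset of their own and 26 were tested. None was called in any of the 3 comparisons (limma), where 0.984%, 0.956% and 1.16% of all genes tested were. At an unadjusted p under 0.05, 1 was higher and 5 lower in Dor-7g, and 1 higher and 2 lower in DOX-7g, against D4-act-7g, and 3 were higher and 1 lower in DOX-7g against Dor-7g. These shares of 23.1%, 11.5% and 15.4% stood beside 14.3%, 11% and 11.6% of all genes tested. Their median differences were -0.19 and -0.22, against 0.06 and -0.05 over all genes tested. Slbp, which binds the histone stem-loop, stood at 7.43 and 7.28 on the D4-act-7g arrays, 6.47 and 6.97 on those of Dor-7g, and 7.08 and 6.83 in DOX-7g, so both dormant groups lay below D4-act-7g without overlap, and neither difference passed (-0.64 ± 0.23 and -0.40 ± 0.23; SE; limma, adjusted p = 0.306 and 0.661). Lsm11, of the U7 snRNP that cuts histone mRNA, differed by -0.66 ± 0.47 and -0.40 ± 0.47 (SE; limma, adjusted p = 0.571 and 0.892). Ccna2, the S and G2 phase cyclin, differed by -1.83 ± 0.32 in Dor-7g (limma's SE and adjusted p = 0.0813). Ccne1 differed by -0.862 ± 0.173 in Dor-7g and -0.664 ± 0.173 in DOX-7g (limma's SE and adjusted p = 0.108 and 0.216). Lsm10 went the other way in DOX-7g, by 0.83 ± 0.31 (limma's SE and adjusted p = 0.415). Of the 29 genes 9 lay above 0 and 20 below in Dor-7g, and 8 above and 21 below in DOX-7g. Of all 22180 genes with no filter 14062 lay above 0 and 8117 below in Dor-7g, and 10001 and 12179 in DOX-7g.

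Of 25 S-phase marker genes 23 had a probeset of their own and 20 were tested. In Dor-7g 2 were called lower, where 0.742% of all genes tested were, the ribonucleotide reductase subunit Rrm2 (-2.05 ± 0.22; SE; limma, adjusted p = 0.0223) and the thymidine kinase Tk1 (-1.93 ± 0.24; adjusted p = 0.0302). In DOX-7g none was called against D4-act-7g (limma), with 8 lower and none higher at an unadjusted p under 0.05, and Rrm2 at -1.47 ± 0.22 (SE; adjusted p = 0.0598). Against Dor-7g none was called in DOX-7g (limma), with 2 higher and 1 lower at an unadjusted p under 0.05. At that p 6 were lower and none higher in Dor-7g. The shares in Dor-7g, in DOX-7g and between them were 30.0%, 40.0% and 15.0%, against 14.3%, 11% and 11.6% of all genes tested. Of the 23 genes 21 lay below 0 in DOX-7g and 16 in Dor-7g, with median differences of -0.29 and -0.18. Of all 22180 genes with no filter 12179 and 8117 lay below 0. The S-phase median was -0.36 and -0.27 on the DOX-7g arrays, the same arrays on which the replication-dependent histone median was 1.07 and 0.52.

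**Figure D4:**
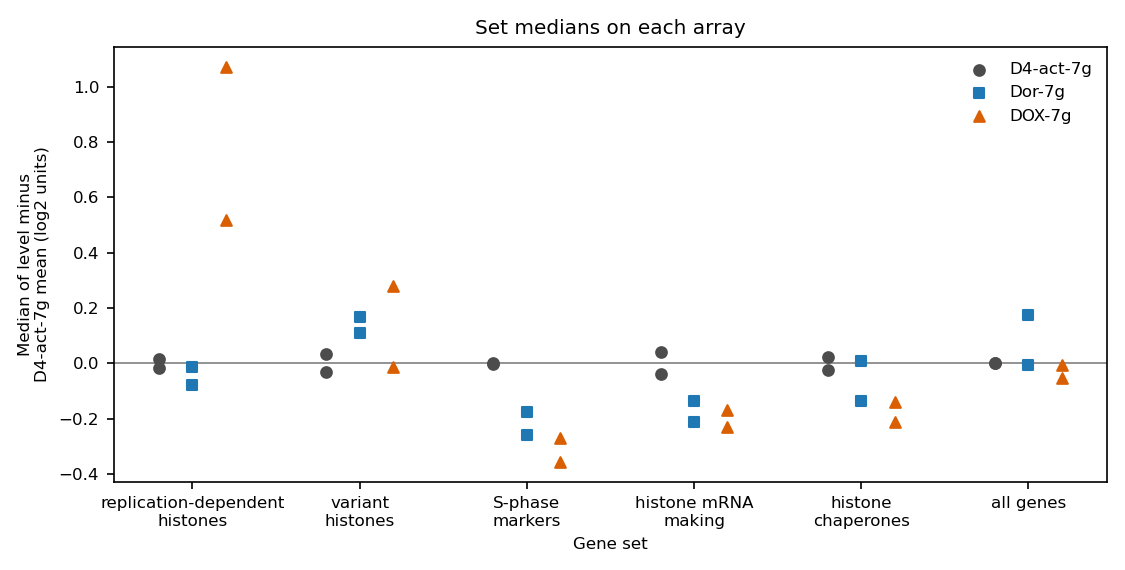
Median over a gene set of the log2 level minus the D4-act-7g mean (y axis) on each array (1 point per array) for 6 gene sets (x axis), with no filter. The replication-dependent histones lie at 1.07 and 0.52 on the DOX-7g arrays and at -0.08 and -0.01 on the Dor-7g arrays, and the S-phase markers lie below 0 on all 4 arrays of the dormant groups.

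Of 33 genes for histone chaperones and deposition 28 were tested, and none was called in any comparison (limma). At an unadjusted p under 0.05, 2 were lower in Dor-7g and 3 in DOX-7g against D4-act-7g, 1 was lower in DOX-7g against Dor-7g, and none was higher. These shares of 7.14%, 10.7% and 3.57% lay below the 14.3%, 11% and 11.6% of all genes tested. Asf1b, an H3 and H4 chaperone of dividing cells, stood at 6.82 and 7.41 on the D4-act-7g arrays, 5.72 and 5.41 on those of Dor-7g, and 5.64 and 6.02 in DOX-7g. It differed by -1.55 ± 0.28 and -1.28 ± 0.28 (SE; limma, adjusted p = 0.0843 and 0.152). Of 7 genes for the centromere histone and its deposition 3 were tested, none was called (limma), and all 3 were lower in Dor-7g at an unadjusted p under 0.05, which 14.3% of all genes tested passed in either direction. In DOX-7g 2 of the 3 were lower at that p, against 11% of all genes tested. Cenpa, the H3 variant of the centromere, stood at 10.75 and 10.62, 8.38 and 9.49, and 10.11 and 10.20, a difference of -1.75 ± 0.37 in Dor-7g (SE; limma, adjusted p = 0.12).

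Markers of other cell types moved with the groups to different extents. The summed log2 level of 9 uterine markers was 43.5 and 43.4 on the D4-act-7g arrays, 48.1 and 51.2 on those of Dor-7g, and 44.5 and 45.4 in DOX-7g, with 5 or 6 of the 9 at or above the array median on every array. One of them, Dcn, stood at 9.29 on Dor-7g replicate 2 and between 3.67 and 4.22 on the other 5 arrays. That of 4 blood markers was 15.7 and 16.4, 19.0 and 21.8, and 29.7 and 28.8, with at most 1, 2 and 3 of the 4 at or above the array median, S100a8 at 10.9 and 10.1 and S100a9 at 9.55 and 9.55 in DOX-7g, and the leukocyte gene Ptprc dim on all 6 arrays. That of 9 oocyte and cumulus markers was 41.6 to 46.4 and that of 5 male germ cell markers 30.2 to 35.5, both highest on D4-act-7g replicate 1, the array with H2bc1 at 5.71. Their part in the histone differences was not tested.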

How the data were processed

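The data are 6 Mouse Gene ST arrays, 2 for each of 3 groups; sample titles gave group and replicate number. The deposited values are 1 log2 level per probeset and array; RMA and Partek 6.6 are named in the submitters' processing notes without settings. RMA summarizes probes after background correction and normalization, and it shrinks differences near background. Which genome build the annotation follows was not given in the sources used here. Per the labels' protocols, RNA was released by heating 10 blastocysts for 5 min in 10 ul of water and labelled with biotin.

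Names came from GEO's platform annotation, with symbols updated by Entrez identifier through RefSeq (GRCm38.p6); all histone identifiers matched. Probesets with 1 symbol, at or above the array median on at least 2 of 6 arrays, were kept, and the brightest stood for its gene. Of the members, 3 genes had a second probeset. One model over all 6 arrays, with a mean for each group, was fitted with limma's lmFit and eBayes (limma 3.58.1, R 4.3.3; 3 residual and 2.81 prior degrees of freedom). A change is a difference of group means with limma's moderated SE, and p-values were Benjamini-Hochberg adjusted over the 14020 genes of a comparison, with a threshold of 0.05. Groups do not overlap where both arrays of one lie above both of the other. The test was also run on simulated data, in which a gene's spread was the same on every array. The Dor-7g arrays parted more than those of the other groups, and that run does not cover this.

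Members, gene lists and tests were chosen with earlier results of these data known. Pseudogenes were set apart from the classes by their RefSeq biotype. Genes named by rule were every member called, the member of each family with the highest mean level (H1f10, H2az2, H2bc12 and H4c12), each replacement variant, H1f8, Slbp, Lsm11, Cenpa and the genes of smallest p in each list. Of the genes of smallest p in each list, not all are printed. Other members were described after their values were seen. Near-identical copies share probe sequence, so which copy a histone probeset measured is uncertain. Alternatives changed the normalization, the filter, eBayes options, array weights, how probesets stand for genes, the block by replicate number, the groups fitted and the arrays left out.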

Additional observations from a re-analysis of the deposited data

How the results depend on the processing

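H2bc12 was called in both comparisons with Dor-7g under all alternatives run, normalization, filters, variance model, weights, block and each array left out. The members called in Dor-7g against D4-act-7g numbered 1, and 2 with each array centred on its median. In DOX-7g against D4-act-7g they numbered 1, and 0 with a filter at 4 of 6 arrays, which removes H4c17 from the test, 6 with array weights and 3 with only the 2 groups compared. In DOX-7g against Dor-7g they numbered 3, and 1 with that filter. H2bc9 lost its call there under most alternatives, with adjusted p up to 0.179 with array weights. With each array left out in turn the members called ranged from 1 to 3, 0 to 3 and 1 to 8 in the 3 comparisons. All genes called, 138, 134 and 163, ranged from 11 to 1172, 43 to 296 and 67 to 880. With array weights they were 79, 461 and 104, and with only the 2 groups compared 86, 296 and 86; the cause was not tested.

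The median of the replication-dependent genes in Dor-7g, 0.07 over all 25, was -0.21 with the filter at 4 of 6 arrays and -0.08 to 0.10 with an array left out. In DOX-7g against D4-act-7g it was 0.98, with 1.44 over the genes kept by the filter, an alternative added after the data were seen, 1.61 with the filter at 4 of 6 arrays, and 0.52 to 1.07 with an array left out. In DOX-7g against Dor-7g it was 1.02, with 1.52 over the genes kept by the filter, 1.53 with the filter at 4 of 6 arrays, and 0.55 to 1.42 with an array left out. These filters keep fewer dim genes, and they can keep a gene through the group where it is high. The filter at 2 of 6 arrays kept H4c17 and H1f3 only through the DOX-7g arrays. The medians of 1.44 and 1.52 are therefore not independent of the DOX-7g differences.

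The labels do not say whether arrays of the same replicate number share a mother, day or batch. The correlations of same-numbered deviations were -0.01, -0.01 and -0.10, and such values cannot show whether they do. With the replicate number as a block the members called were 1, 1 and 2, with H2bc9 lost (limma, adjusted p = 0.075), and all genes called 82, 90 and 116. With 2 arrays a group and dim levels for many histones, differences near 1 log2 unit could seldom pass.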
